A study of Mus musculus with 24 samples.

Results

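The proteasome genes of the hypothalamus were followed through intragastric overfeeding and the first days of recovery. The members were all genes whose mouse symbol is formed from Psma to Psmg, a number and an optional letter, which gave 49 of the 55471 genes counted. They comprised 19 genes of the core particle (8 alpha, 7 constitutive beta and 4 immuno- or thymoproteasome beta genes), 17 genes of the regulatory particle (9 of its base and 8 of its lid) and 13 others, namely 6 activator or inhibitor genes and 7 assembly chaperones. The symbol alone decided which genes were members, but the family was chosen with earlier results of these data known. In the table of counts, 4 rows named as proteasome pseudogenes were not members, and no library held more than 7 counts of any of them.

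The mice were male C57BL6/J animals of 18 weeks kept on chow. Overfed mice (ExpOF) received a liquid diet through a gastric catheter, whose flow rose stepwise to 150% of baseline energy on day 9, and control mice were infused with sterile water. Hypothalami were taken on day 14, the last day of infusion (ExpOF d14 and Control d14), or on day 17, after every mouse had been infused with water for the days in between (ExpOF d14+3 and Control d14+3). Each group had 6 mice and 1 library per mouse, killed in July or September and extracted in 2 rounds. Control d14 replicate 4 was matched, through the study's table of group means, to the control mouse that the study left out for poor RNA quality. It was left out of the tests here, so that Control d14 had n = 5.

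The proteasome is the barrel-shaped protease that breaks down proteins tagged with ubiquitin. Its core particle is a stack of outer alpha rings, which gate the entrance, and inner beta rings, which hold the cutting sites. The regulatory particle caps the core and binds ubiquitin. Its lid removes ubiquitin, and the ATPases of its base unfold the substrate and thread it into the core. Cells exposed to interferon replace the constitutive catalytic subunits Psmb5, Psmb6 and Psmb7 with Psmb8, Psmb9 and Psmb10, and neurons rely on the complex to renew synaptic proteins.

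Counts assigned to genes ranged from 8928182 to 34848437 per library. The tissue label was checked against 12 hypothalamic marker genes, all of which passed the expression filter, with a summed level of 515 to 1324 CPM (counts scaled to a common library size by TMM) in the 23 libraries tested. All 8 microglial and all 6 endothelial markers were also measured, with sums of 305 to 416 CPM and 183 to 254 CPM. Choroid plexus markers were uneven, from 28.1 to 2981 CPM, with the highest sum of the 23 in a Control d14 library. The other cell type lists summed to 2929 to 3599 CPM for neurons, 1180 to 1418 CPM for astrocytes, 5159 to 7724 CPM for oligodendrocytes, 255 to 642 CPM for meninges, 1.56 to 105 CPM for anterior pituitary, 40.2 to 287 CPM for erythrocytes, 106 to 346 CPM for thalamus and 2.20 to 14.8 CPM for T cells and NK cells. In whole tissue, fewer cells of a type and less RNA per cell cannot be told apart.

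Upstream sequence was available in RefSeq (build GRCm38.p6) for 41 of the 49 genes, and the stretches of 4 members are shown to set genes with contrasting d14 estimates side by side. They are the core beta subunit with the lowest fold change (Psmb4), a catalytic core subunit (Psmb5), the most abundant ATPase (Psmc5) and the lid subunit with the highest fold change (Psmd11). Each runs 5′ to 3′ on the strand of its gene and ends before the earlier of the RefSeq start and the start in the counts table. Capitals mark a match, on either strand, to CCGGAAG (the core of an ETS-type site) or to TGACNNNGC (antioxidant response element type). They also mark a match, on either strand, to the nuclear respiratory factor type motif (the letters in capitals in Psmc5, with any base after the opening GCGC).
Psmb4, chr3:94886959-94887208, minus strand: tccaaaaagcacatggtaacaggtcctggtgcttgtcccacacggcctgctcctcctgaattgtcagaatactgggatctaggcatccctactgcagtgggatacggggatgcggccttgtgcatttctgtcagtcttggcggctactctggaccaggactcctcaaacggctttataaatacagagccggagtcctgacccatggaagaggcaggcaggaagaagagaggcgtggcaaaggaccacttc
Psmb5, chr14:54618023-54618245, minus strand: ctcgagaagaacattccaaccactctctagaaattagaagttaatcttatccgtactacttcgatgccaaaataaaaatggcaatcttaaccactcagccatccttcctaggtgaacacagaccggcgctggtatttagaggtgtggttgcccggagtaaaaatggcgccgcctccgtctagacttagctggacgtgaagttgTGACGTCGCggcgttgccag
Psmc5, chr11:106255935-106256153, plus strand: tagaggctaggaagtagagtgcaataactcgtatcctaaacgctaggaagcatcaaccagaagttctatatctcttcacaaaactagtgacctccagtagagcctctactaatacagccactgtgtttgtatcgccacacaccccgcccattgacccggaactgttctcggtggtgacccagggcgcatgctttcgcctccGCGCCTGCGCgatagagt
Psmd11, chr11:80428365-80428614, plus strand: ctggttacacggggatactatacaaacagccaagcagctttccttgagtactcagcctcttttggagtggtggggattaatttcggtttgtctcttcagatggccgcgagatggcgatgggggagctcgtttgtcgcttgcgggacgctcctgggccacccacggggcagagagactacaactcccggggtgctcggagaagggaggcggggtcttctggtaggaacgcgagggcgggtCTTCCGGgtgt

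Motifs were counted in the 250 bases before the RefSeq start, and a gene was counted when any of its starts had a match. CCGGAAG was found in 12 of the 41 members (29.3%) and in 7.83% of the 27025 genes with upstream sequence. Its 12 matches were split unevenly, with 8 of 14 regulatory particle genes against 1 of 15 core genes and 3 of the 12 others. The nuclear respiratory factor type motif was found in 6 members (14.6%) against 4.23% of all genes, namely Psma2, Psma3, Psma4, Psmc4, Psmc5 and Psmd14. TGACNNNGC, the type of site bound by the proteasome gene activators of the Nfe2l family, was found in Psmb5, Psmb6, Psmc6, Psmd12 and Psmd9 (12.2%), close to the 11.5% of all genes. A CCAAT box was found in 34.1% of members and 37.5% of all genes, and the GC box GGGCGG in 53.7% and 35.4%. The members' upstream sequences had a median GC content of 57.2%, against 52.0% for all genes, and this difference in composition was not corrected for. A match is a description of the letters and not evidence of a bound factor.

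Transcript levels of the members, scaled by the length of their merged exons, spanned several orders of magnitude. Over the 23 libraries the most abundant member per length was Psmc5, an ATPase of the base, at 144 CPM per kb. It was followed by Psma6, an alpha ring subunit, at 91.5 CPM per kb, and Psmc1, another ATPase of the base, at 90.6 CPM per kb. The 7 alpha genes other than Psma8 ranged from 17.8 to 91.5 CPM per kb and the 7 constitutive beta genes from 18.4 to 69.0 CPM per kb. Base genes ranged from 24.8 to 144 CPM per kb and lid genes from 9.42 (Psmd11) to 47.6 CPM per kb (Psmd7). Core and regulatory transcripts therefore overlapped in level, and the merged exon length sets this scale: the longest lid gene, Psmd11, at 6383 bases, was also the lowest.

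The assembly chaperones, which build the particles and then leave or are degraded, lay between 3.67 (Psmg3) and 12.4 CPM per kb (Psmd10). Among the activators, Psme3, the nuclear activator, was at 36.1 CPM per kb, above Psme1 at 26.0 and Psme2 at 17.8 CPM per kb, which form the interferon-inducible cap. Psmf1, the inhibitor, was at 7.44 and Psme4, the large single-chain activator, at 6.80 CPM per kb.

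**Figure D1:**
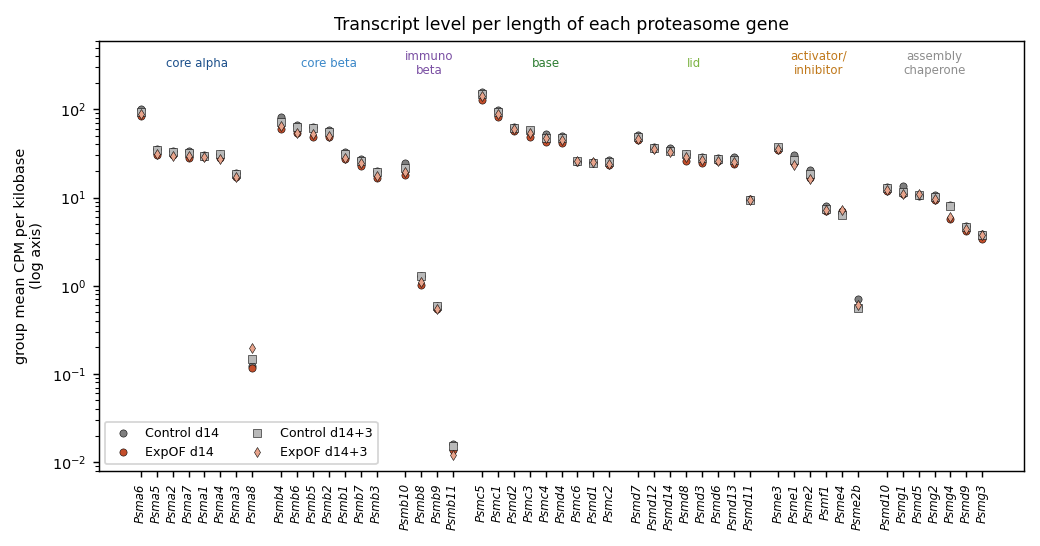
Group mean CPM per kilobase of merged exon (log axis) of the 49 members, by class and in falling order within a class, for the 4 groups (Control d14 n = 5, the others n = 6). The group symbols of a gene lie close together, while genes differ from 0.0142 (Psmb11) to 144 CPM per kb (Psmc5).

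Tissue-restricted members were at the floor. Psmb11, the catalytic subunit of the thymus, had a mean of 1.83 counts and at most 7 counts in a library, and it was the only member that did not pass the expression filter. Psma8, the alpha subunit of the testis, averaged 8.78 counts and Psme2b 12.3 counts per library. All other members averaged at least 50 counts. Members together made up 0.343% to 0.483% of all counts in the 23 libraries.

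Whether overfeeding changed proteasome transcripts was asked first on d14. No member passed the test in edgeR's quasi-likelihood fit over 18992 genes (adjusted p from 0.135 upwards), and 1 gene of the series did (0.00527% of those tested). That gene was Npy, the orexigenic neuropeptide, at 11.3 ± 1.32 CPM (SD, n = 6) in ExpOF d14 and 24.3 ± 4.17 CPM (SD, n = 5) in Control d14. At an unadjusted p under 0.05, 30 of the 48 members tested were lower in ExpOF d14 and none was higher, beside 26.7% of all genes (13.6% lower and 13.1% higher). DESeq2 called 166 genes and no member, and its smallest adjusted p of a member was 0.0511. In that fit 28 members were lower (13% of all genes) and none higher at an unadjusted p under 0.05. The estimates pointed one way in 43 of 48 members, beside 53.4% of all genes. No member separated the groups completely (all genes: 0.958% lower and 1.54% higher without overlap).

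Which control mice were kept decided the count of calls. Without Control d14 replicate 1, which had the lowest member levels of its group, 29 of the 48 members were called lower and none higher (edgeR, adjusted p), in a fit that called 22% of all genes (9.93% lower). The 29 comprised 5 alpha, all 7 constitutive beta, 1 immuno beta, 6 base and 4 lid genes, 3 activator or inhibitor genes and 3 assembly chaperones. Without each of the other libraries in turn, no member was called. The count at an unadjusted p under 0.05, 30 with all 23 libraries, was 14 without Control d14 replicate 2 (7.85% of all genes lower), 19 without replicate 5 (8.38%) and 21 without replicate 6 (9.77%). It was 35 without replicate 1, where the share of all genes was at least the 9.93% called lower by adjusted p.

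The median log2 fold change on d14 was -0.26 for the 18 core members tested and -0.20 for the 17 regulatory members, beside -0.02 for all genes tested. The core median lay below the regulatory one by a log2 difference of -0.06. Computed per library as the mean of core minus the mean of regulatory members, this difference averaged 0.04 in the 5 Control d14 mice (SD 0.08) and -0.04 in the 6 ExpOF d14 mice (SD 0.05), with overlapping ranges. Within the core, the median was -0.16 for the alpha genes, -0.28 for the constitutive beta genes and -0.31 for the 3 immuno beta genes tested. Within the regulatory particle it was -0.25 for the base and -0.16 for the lid. By unadjusted p under 0.05, 7 of 7 constitutive beta, 7 of 9 base, 4 of 8 alpha and 4 of 8 lid genes were lower.

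The core score of a library, the average log2 CPM of its core members minus the average of the 23 libraries, was -0.22, 0.41, -0.08, 0.22 and 0.23 in Control d14 replicates 1, 2, 3, 5 and 6. In ExpOF d14 it lay between -0.21 and -0.02 with a median of -0.12. The lowest control, replicate 1, lay below all 6 overfed mice and replicate 3 within their range, so that the groups overlapped. The regulatory score was -0.17, 0.29, -0.03, 0.14 and 0.16 in the same 5 controls and -0.15 to 0.01 in ExpOF d14. The core and regulatory scores ranked the 5 controls in the same order. The spread was wider among controls (core SD 0.26) than among overfed mice (core SD 0.08). On d14+3 the core score ran from -0.07 to 0.26 in Control d14+3 and from -0.13 to 0.18 in ExpOF d14+3, again overlapping.

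**Figure D2:**
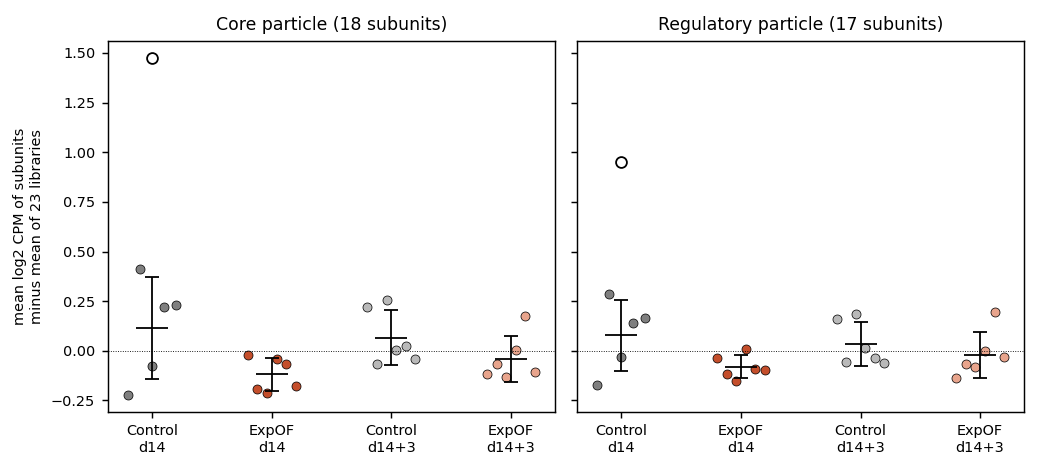
Mean log2 CPM of the tested core (left) and regulatory (right) members in each library, minus the mean of the 23 libraries, by group, with group mean and SD (n = 5 for Control d14, 6 for the others). The open circle is Control d14 replicate 4, not in the fit, at 1.48 and 0.95. ExpOF d14 lies in a narrow band (core -0.21 to -0.02), and Control d14 spreads from -0.22 to 0.41.

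Among constitutive beta subunits the lowest d14 estimate was that of Psmb4, a structural subunit of the inner ring (chr3:94884093-94886862, minus strand, mm10), whose upstream sequence above held none of the 3 motifs. Its level was 110, 207, 131, 175 and 175 CPM in Control d14 replicates 1, 2, 3, 5 and 6, and 103 to 128 CPM (median 115) in ExpOF d14. Replicates 2, 3, 5 and 6 lay above every overfed mouse and replicate 1 lay inside their range. The log2 fold change was -0.47 (SE 0.14, edgeR adjusted p = 0.135). Psmb1, another structural subunit, was at 115, 179, 136, 164 and 169 CPM in the same controls and at 114 to 135 CPM (median 126) in ExpOF d14, with a log2 fold change of -0.28 (SE 0.10, adjusted p = 0.135).

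The catalytic beta subunits had estimates of the same sign. Psmb5, the chymotrypsin-like site, was at 39.9, 65.3, 49.8, 63.4 and 63.5 CPM in the 5 controls and at 39.2 to 47.4 CPM (median 42.9) in ExpOF d14. Its log2 fold change was -0.39 (SE 0.13, edgeR adjusted p = 0.135). Psmb6, the caspase-like site, was at 84.5, 159, 102, 130 and 144 CPM in controls and 92.6 to 112 CPM (median 99.8) in ExpOF d14, a log2 fold change of -0.30 (SE 0.13, edgeR adjusted p = 0.148). For Psmb7, the trypsin-like site, the controls were at 74.3, 112, 81.2, 97.3 and 101 CPM and the overfed mice at 67.0 to 88.6 CPM (median 77.3), with a log2 fold change of -0.26 (SE 0.09, edgeR adjusted p = 0.135). The lowest control, replicate 1, lay within the range of the overfed mice for Psmb5 and Psmb7 and below it for Psmb6.

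Of the alpha ring, Psma6 had the smallest p on d14, at 98.4, 155, 111, 132 and 131 CPM in controls against 94.8 to 113 CPM (median 103) in ExpOF d14, with a log2 fold change of -0.27 (SE 0.09, edgeR adjusted p = 0.135). Psma5 had a log2 fold change of -0.24 (SE 0.09), Psma2 of -0.16 (SE 0.07) and Psma4 of -0.16 (SE 0.08), with edgeR adjusted p of 0.141, 0.169 and 0.187.

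In the base of the regulatory particle, Psmc5 (chr11:106256154-106263120, plus strand, mm10), whose upstream sequence held the nuclear respiratory factor type match 49 to 40 bases before the RefSeq start, which lies downstream of the start in the counts table, was at 164, 257, 198, 245 and 242 CPM in controls. In ExpOF d14 it was at 170 to 194 CPM (median 178), and its log2 fold change was -0.30 (SE 0.10, edgeR adjusted p = 0.136). The lowest control lay below every overfed mouse and the other 4 above. The other ATPases with the smallest p were Psmc4, at 90.9, 132, 104, 125 and 115 CPM in controls and 85.6 to 99.6 CPM (median 92.2) in ExpOF d14, with a log2 fold change of -0.29 (SE 0.10, edgeR adjusted p = 0.137), and Psmc1, with -0.25 (SE 0.09, edgeR adjusted p = 0.137). Psmc1 was at 146, 224, 172, 199 and 206 CPM in controls and 152 to 174 CPM (median 155) in ExpOF d14. Psmc6, another ATPase, had an estimate of 0.03 (SE 0.07).

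The lid subunit Psmd8 was at 73.8, 110, 87.2, 109 and 102 CPM in controls and 75.7 to 87.4 CPM (median 79.1) in ExpOF d14, a log2 fold change of -0.27 (SE 0.10, edgeR adjusted p = 0.140). Psmd3, a scaffold of the lid, had a log2 fold change of -0.23 (SE 0.09, edgeR adjusted p = 0.145). Psmd11, a scaffold subunit of the lid with the ETS-type match 11 to 5 bases before its RefSeq start, was at 60.7, 56.7, 59.7, 62.2 and 58.8 CPM in controls and 57.7 to 64.5 CPM (median 62.0) in ExpOF d14. Its log2 fold change was 0.04 (SE 0.05, edgeR adjusted p = 0.549). Psmd1, the large scaffold of the base, was at 173 to 183 CPM in controls and 177 to 189 CPM in ExpOF d14 (log2 fold change 0.04, SE 0.04, edgeR adjusted p = 0.518).

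**Figure D3:**
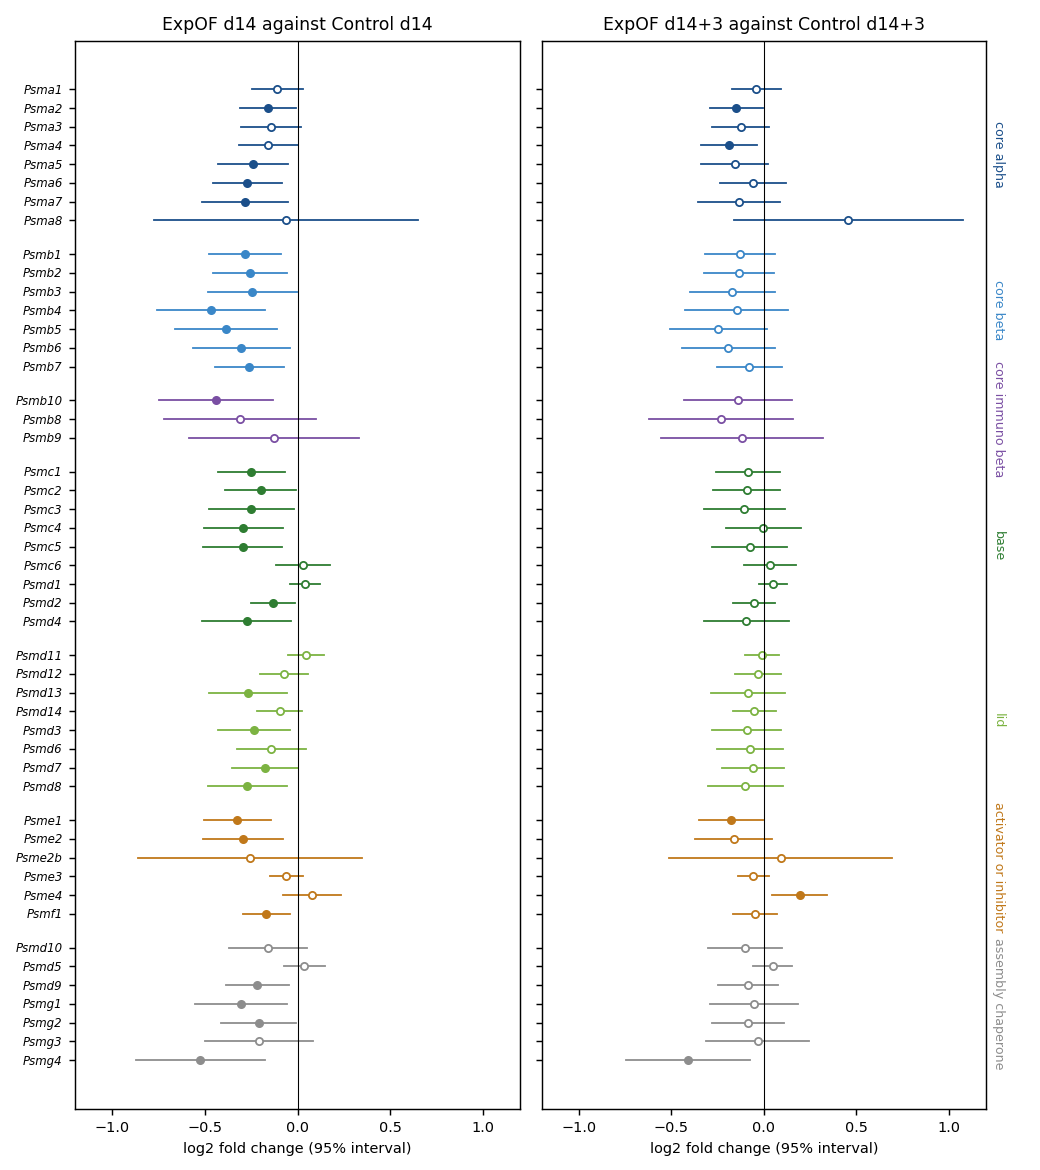
Log2 fold change of the 48 tested members on d14 (left) and d14+3 (right), ExpOF against Control, with 95% intervals and grouped by class. Filled points have an unadjusted p under 0.05, and no point passed the adjusted threshold. On d14 all 18 core members tested lie below 0, and 14 of 17 regulatory members do.

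Activators and assembly chaperones spanned both ends of the d14 estimates. Psme1, part of the interferon-inducible cap, had the smallest p of all members, at 50.01, 79.0, 59.9, 71.1 and 77.4 CPM in controls and 51.0 to 57.3 CPM (median 52.9) in ExpOF d14. Its log2 fold change was -0.33 (SE 0.09, edgeR adjusted p = 0.135), and its partner Psme2 had -0.29 (SE 0.11, edgeR adjusted p = 0.138). Psmg4, a chaperone of core assembly, had the lowest estimate of all members at -0.53 (SE 0.17, edgeR adjusted p = 0.135), with 3.03, 5.29, 3.64, 5.08 and 5.52 CPM in controls and 2.73 to 3.89 CPM in ExpOF d14. At the other end, Psme4 had the highest estimate at 0.08 (SE 0.08, edgeR adjusted p = 0.503). The 13 members of these classes had 11 negative and 2 positive estimates on d14, and 7 of them an unadjusted p under 0.05.

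Estimates on d14 followed the length and base composition of the transcript. All 23 members with less than 2700 bases of merged exon had negative estimates (median -0.26), and 20 of the 25 longer ones did (median -0.16). Of the 7 members over 5000 bases, 3 were negative (median 0.04). Across the 46 members with a mean of at least 50 counts, the d14 log2 fold change had r = 0.68 and rho = 0.60 with log2 length and r = -0.66 and rho = -0.69 with GC content. The same quantities over 18922 other genes gave r = 0.30 and rho = 0.41 with length and r = -0.38 and rho = -0.44 with GC content. The points share the same libraries and depth, so these values describe the libraries and carry no test. With each library's trends in length and GC content removed, the d14 medians were -0.15 for core and -0.14 for regulatory members, with 14 members lower at an unadjusted p under 0.05 (8.72% of all genes in that fit).

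The estimates also followed the profile of the control library that was left out. In Control d14 replicate 4, members took up 0.809% of all counts. Of the 46 members with at least 50 counts, 40 were above and 3 below every other Control d14 library there, with a median of 2.19-fold the mean of the other controls (range 0.729 to 5.49). Psmb10 was at 207 CPM in that library against 27.5 to 52.9 CPM in the other controls, while Psmd11 was at 43.4 CPM against 56.7 to 62.2 CPM. Across the 46 members, its log2 difference from the other controls had r = -0.80 and rho = -0.78 with the d14 log2 fold change, which uses the same 5 controls. Over the 18922 other genes the same quantities had r = -0.47 and rho = -0.55. Its RNA integrity number in the labels was 9.8, and its choroid plexus markers summed to 4539 CPM. A score for this profile, computed on genes that are not members, was 0.13, 0.11 and 0.09 in Control d14 replicates 2, 5 and 6, -0.01 in replicate 3 and -0.08 in replicate 1. It was -0.08 to -0.01 in ExpOF d14. With the score as a covariate, the d14 medians were -0.01 for core and 0.01 for regulatory members, and no member had an unadjusted p under 0.05. The part of this profile in the d14 difference cannot be told apart from the groups themselves in 11 mice.

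**Figure D4:**
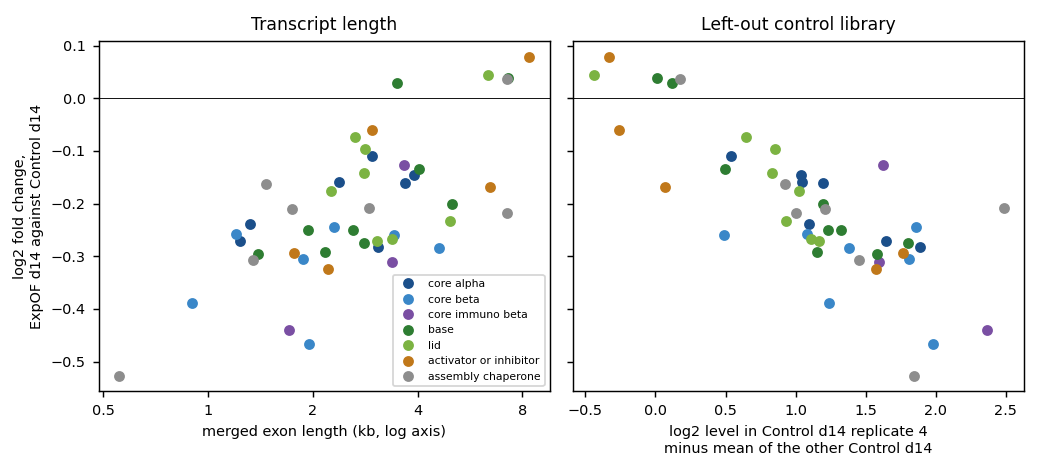
Log2 fold change on d14 of the 46 members with a mean of at least 50 counts, against merged exon length (left, log axis) and against the log2 difference of Control d14 replicate 4 from the other 5 Control d14 libraries (right). Colours give the class. Longer transcripts lie higher (r = 0.68), and members that were high in the left-out library lie lower (r = -0.80).

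The cohorts were compared because mice were killed in July and September. In July the d14 medians were -0.31 for core and -0.28 for regulatory members, and in September -0.15 and -0.10. Both cohorts gave negative estimates for 36 members and both gave positive ones for 2, and all 7 constitutive beta genes were negative in both. Each cohort had 3 mice or fewer per group, and 24 members in July and none in September were lower at an unadjusted p under 0.05, beside 1737 of 18603 and 497 of 18939 genes. RNA integrity was 9.20 ± 0.860 (SD, n = 5) in Control d14 and 9.75 ± 0.138 (SD, n = 6) in ExpOF d14, and with it as a covariate the medians were -0.29 and -0.23.

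The immunoproteasome was compared with its constitutive counterparts, since each inducible subunit takes the place of 1 constitutive subunit. Psmb8 and Psmb9 lie in the major histocompatibility complex on chromosome 17, and both were scarce: the level of Psmb8 per length was 1.35% to 3.49% of that of Psmb5 (median 2.11%), and that of Psmb9 0.551% to 1.46% of that of Psmb6 (median 0.973%). Psmb10, which lies outside that complex, was at 67.2% to 107% of Psmb7 (median 78.4%). These percentages depend on merged exon length, 1705 bases for Psmb10 and 3421 for Psmb7, and 3381 for Psmb8 and 899 for Psmb5. Without length scaling, Control d14 averaged 41.5 CPM for Psmb10 and 93.0 CPM for Psmb7, and 4.33 CPM for Psmb8 and 56.4 CPM for Psmb5. Exons of Psmb9 share 212 bases with Tap1 and those of Psmb8 share 498 bases with Gm20496, each on the opposite strand. The libraries were stranded, but how strand was treated in counting is not given in the sources used here, so these values are uncertain. Psmb7 overlaps Nek6 and Gm13586 on the opposite strand, and the most that its exons share with either is 405 bases.

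Psmb10 was at 27.5, 52.9, 36.3, 46.1 and 44.8 CPM in Control d14 and 28.0 to 32.6 CPM (median 31.1) in ExpOF d14, with a log2 fold change of -0.44 (SE 0.15, edgeR adjusted p = 0.135). Psmb8 was at 3.59, 6.21, 3.10, 4.10 and 4.65 CPM in the controls and 2.78 to 4.65 CPM (median 3.24) in ExpOF d14 (log2 fold change -0.31, SE 0.20, edgeR adjusted p = 0.301). Psmb9 was at 1.68, 2.35, 1.59, 3.39 and 1.87 CPM and 1.70 to 2.55 CPM (median 1.88), with a log2 fold change of -0.13 (SE 0.22, edgeR adjusted p = 0.727). The groups overlapped for all 3.

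None of the 6 ratio comparisons passed a two-sided exact permutation test over mice (Benjamini-Hochberg adjusted over the 6). The lowest p was that of Psmb10 to Psmb7 on d14, a log2 ratio of -0.33 ± 0.10 (SD, n = 6) in ExpOF against -0.18 ± 0.15 (SD, n = 5) in Control, a difference of -0.16 (exact permutation p = 0.0693, adjusted 0.416). On d14+3 that difference was -0.08 (exact permutation p = 0.502, adjusted 0.842). Psmb8 to Psmb5 differed by 0.06 on d14 and 0.02 on d14+3 (adjusted exact permutation p = 0.842 and 0.942), and Psmb9 to Psmb6 by 0.21 and 0.11 (adjusted exact permutation p = 0.842 for both). The SDs of the scarce pairs between mice, 0.25 to 0.45, exceeded these differences. Microglial markers, which accompany immunoproteasome expression in brain, summed to 317 to 416 CPM in Control d14 and 305 to 349 CPM in ExpOF d14, with 6 of 8 lower and a median log2 fold change of -0.06. Other marker lists also had negative d14 medians: choroid plexus -1.72 (4 of 4 tested lower), meninges -0.34 (5 of 5), oligodendrocytes -0.19 (3 of 5) and hypothalamus -0.18 (10 of 12, Npy among the 12). So did anterior pituitary at -1.30 (1 of 2 tested), thalamus at -0.15 (3 of 4) and endothelium at -0.07 (4 of 6). The medians were positive for neurons (0.02), astrocytes (0.02), erythrocytes (0.08) and T cells and NK cells (0.17, 1 tested). The part of these lists in the d14 estimates of the members was not tested.

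**Figure D5:**
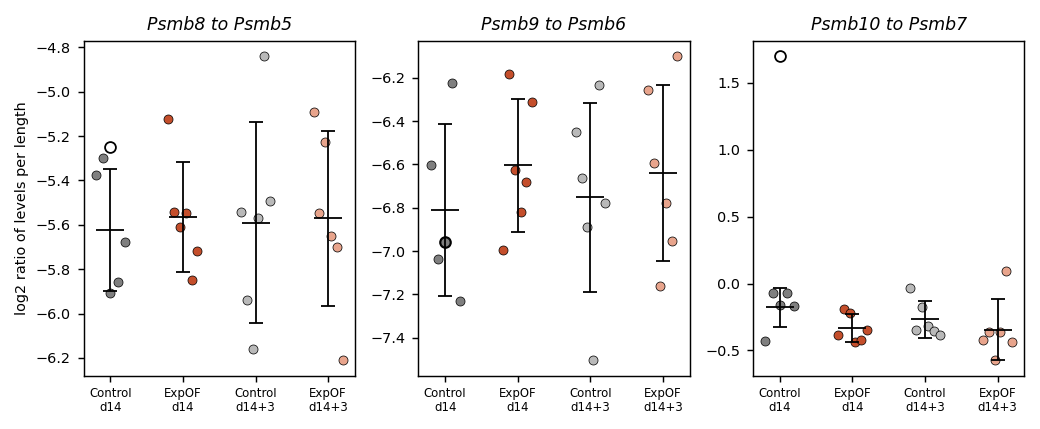
Log2 ratio of length-scaled levels of each immunoproteasome subunit to the constitutive subunit it replaces, per mouse and by group, with mean and SD (n = 5 for Control d14, 6 for the others). The open circle is Control d14 replicate 4, not in the tests. Psmb8 to Psmb5 lies near -5.6 and Psmb9 to Psmb6 near -6.7, and the groups overlap in all 3 panels.

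On d14+3, when overfed and control mice had both been infused with water since the end of overfeeding, no member and no gene was called (0% of those tested, edgeR). At an unadjusted p under 0.05, 4 members were lower and 1 was higher, beside 7.11% of all genes (4.2% lower and 2.91% higher). DESeq2 called 55 genes and no member. The medians were -0.14 for core and -0.07 for regulatory members, beside 0.01 for all genes, and 42 of 48 estimates were negative, beside 47.9% of all genes. Core and regulatory medians differed by -0.06. Per library the difference averaged 0.03 in the 6 Control d14+3 mice (SD 0.04) and -0.02 in the 6 ExpOF d14+3 mice (SD 0.04), and the ranges overlapped. RNA integrity was 9.43 ± 0.450 in ExpOF d14+3 and 8.62 ± 1.09 in Control d14+3 (SD, n = 6 each). With it as a covariate the medians were -0.17 for core and -0.12 for regulatory members, and 7 members were lower at an unadjusted p under 0.05 (6.92% of all genes). In July the core and regulatory medians were -0.24 and -0.11, and in September -0.04 and -0.03. With the score for the left-out library's profile as a covariate they were -0.003 and 0.04. No member separated the groups completely (all genes: 0.3% lower, 0.121% higher).

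The 4 lower members were Psma2, Psma4, Psme1 and Psmg4. Psma4 was at 66.4 to 78.9 CPM (median 75.6) in Control d14+3 and 56.7 to 69.6 CPM (median 65.8) in ExpOF d14+3, with a log2 fold change of -0.19 (SE 0.07, edgeR adjusted p = 0.589). Its exons share 114 bases with AY074887 on the opposite strand. Psma2 was at 115 to 132 CPM (median 121) and 102 to 124 CPM (median 108), a log2 fold change of -0.15 (SE 0.07, edgeR adjusted p = 0.702). Both ranges overlapped between the groups. Psmg4 had the lowest estimate again, at -0.41 (SE 0.16, edgeR adjusted p = 0.587), and Psme1 was at -0.18 (SE 0.08, edgeR adjusted p = 0.702).

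The member that was higher at an unadjusted p under 0.05 was Psme4. It was at 47.7 to 59.1 CPM (median 53.2) in Control d14+3 and 51.1 to 66.0 CPM (median 61.1) in ExpOF d14+3, a log2 fold change of 0.19 (SE 0.07, edgeR adjusted p = 0.565). It is the longest member, at 8382 bases. The highest estimate, 0.46 for Psma8 (SE 0.30, edgeR adjusted p = 0.768), rested on about 9 counts per library. Among the catalytic subunits, Psmb5 was at 42.8 to 70.1 CPM (median 50.9) in Control d14+3 and 40.3 to 60.4 CPM (median 44.9) in ExpOF d14+3, with a log2 fold change of -0.25 (SE 0.13, edgeR adjusted p = 0.724). Psma5 had -0.16 (SE 0.09, edgeR adjusted p = 0.747). Psmb6, Psmb7 and Psmb10 had -0.19, -0.08 and -0.14, and Psmb8 and Psmb9 -0.23 and -0.12.

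In the regulatory particle no member had an unadjusted p under 0.05 on d14+3. The 4 with the smallest p were Psmd1 (log2 fold change 0.05, SE 0.04), Psmc2 (-0.09, SE 0.09), Psmd3 (-0.09, SE 0.09) and Psmd8 (-0.10, SE 0.10), with edgeR adjusted p between 0.776 and 0.797. Psmc4, at -0.29 on d14, had -0.002 (SE 0.10). ExpOF d14+3 replicate 5 had the highest core score of its group, 0.18 against at most 0.002 in the others, and without it 14 members were lower at an unadjusted p under 0.05 (7.39% of all genes), none of them called. Without each of the other libraries in turn, that count was 1 to 6.

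Whether the difference between overfed and control mice changed between the days was tested as an interaction. No member was called (0% of all genes, edgeR), and none had an unadjusted p under 0.05, beside 4.42% of all genes (1.64% lower and 2.78% higher). Estimates were positive, meaning a less negative difference on d14+3 than on d14, in 46 of 48 members, with a median of 0.12 for both core and regulatory members and 0.01 for all genes. The largest estimates among the abundant members were 0.32 for Psmb4 (SE 0.19), 0.30 for Psmb10 (SE 0.21) and 0.29 for Psmc4 (SE 0.14), each with an edgeR adjusted p of 0.903. A difference between the days was thus not shown for any member.

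Between the days, no member was called within overfed or within control mice. ExpOF d14+3 against ExpOF d14 had median log2 fold changes of 0.05 for core and 0.06 for regulatory members, with 1 member, Psma8, higher at an unadjusted p under 0.05 (7.79% of all genes, 2.4% lower and 5.39% higher, 0% called). Control d14+3 against Control d14 had medians of -0.05 for both, with only Psme1 at an unadjusted p under 0.05 (log2 fold change -0.21, edgeR adjusted p = 0.289), beside 12.7% of all genes (5.93% lower and 6.81% higher), in a comparison that called 218 genes (1.15%). Without Control d14 replicate 1, Psme1 was called in it (log2 fold change -0.30, edgeR adjusted p = 0.0377), as were 1.5% of all genes. No member separated the days completely, beside 0.2% of all genes lower and 0.632% higher in overfed mice and 0.495% lower and 1.08% higher in controls. Control d14 libraries enter both the d14 comparison and this one. Thalamus markers differed between the days. They summed to 106 to 211 CPM in Control d14 and 204 to 315.5 CPM in Control d14+3. In overfed mice they summed to 112 to 203 CPM on d14 and 192.5 to 346 CPM on d14+3. The part of tissue content in the comparisons between days was not tested.

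The genes around the proteasome were taken from 8 lists, none of whose members was called on either day (edgeR). For the counts of signs below, 53.4% of all genes had a negative estimate on d14 and 47.9% on d14+3. Among the genes that encode ubiquitin, Rps27a, which encodes it fused to a ribosomal protein, had a log2 fold change of -0.38 (SE 0.15, edgeR adjusted p = 0.141) on d14 and -0.45 (SE 0.14, edgeR adjusted p = 0.430) on d14+3. Ubb, a polyubiquitin gene, had -0.24 (SE 0.10) on d14 and 0.09 (SE 0.10) on d14+3.

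Subunits and factors that join the proteasome without a Psm symbol went both ways on d14, with 4 of 10 tested below 0 and a median of 0.08. Adrm1, a ubiquitin receptor of the base, was lower in every ExpOF d14 mouse than in any Control d14 mouse, as were 0.958% of all genes. Its log2 fold change was -0.36 (SE 0.12, edgeR adjusted p = 0.135). Ube3c, a ligase that extends ubiquitin chains on the proteasome, was higher without overlap (all genes: 1.54%) at 0.16 (SE 0.05, edgeR adjusted p = 0.135). Ecpas, a proteasome adaptor, was at 0.20 (SE 0.09). On d14+3, Sem1, a small lid subunit, was at -0.39 (SE 0.13, edgeR adjusted p = 0.521), Adrm1 at -0.24 (SE 0.11) and Ube3c at 0.06 (SE 0.05).

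The lid has relatives in the COP9 signalosome and the translation factor eIF3, built from the same domains. The list held 22 genes of these complexes, not all of them relatives of the lid. On d14, 19 of the 22 had negative estimates, with a median of -0.17, near that of the lid (-0.16). At an unadjusted p under 0.05, 13 were lower and 1 higher (all genes: 13.6% and 13.1%). Eif3f had -0.38 (SE 0.11), Cops5, the deneddylase of the signalosome, -0.28 (SE 0.09) and Eif3h -0.26 (SE 0.09), each with an edgeR adjusted p of 0.135. On d14+3 the median was -0.06 and no gene of the list had an unadjusted p under 0.05, the smallest p belonging to Cops3 (0.09, SE 0.05), Cops5 (-0.15, SE 0.08) and Eif3a (0.12, SE 0.07).

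Among cytosolic chaperones, 15 of 18 were below 0 on d14 (median -0.11) and 8 of 18 on d14+3 (median 0.005). Hsp90ab1 had -0.18 (SE 0.07), Cct7 -0.19 (SE 0.08) and Tcp1 -0.13 (SE 0.06) on d14. On d14+3 Bag3, the co-chaperone that diverts clients to autophagy, had -0.27 (SE 0.08, edgeR adjusted p = 0.436), Hsph1 0.12 (SE 0.08) and Hsp90aa1 0.07 (SE 0.05).

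Shuttle receptors and the segregase Vcp with its cofactors had a median of -0.01 on d14, with 4 of 14 lower and 2 higher at an unadjusted p under 0.05 (all genes: 13.6% and 13.1%). Ufd1, a cofactor of Vcp, was lower without overlap (-0.16, SE 0.04, edgeR adjusted p = 0.135), as were 0.958% of all genes. Sqstm1, an autophagy receptor, had -0.23 (SE 0.08) and Ubxn1 -0.37 (SE 0.14). On d14+3 their median was -0.02, with Ufd1 at -0.09 (SE 0.04), Faf1 at 0.09 (SE 0.05) and Rad23b at -0.10 (SE 0.05).

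Ubiquitin activating and conjugating enzymes had a median of 0.03 on d14 over 15 tested, with Uba6 at 0.60 (SE 0.18, edgeR adjusted p = 0.135), Ube2d3 at 0.34 (SE 0.15) and Ube2g1 at 0.21 (SE 0.09). On d14+3 the median was -0.005, with Ube2r2 at -0.17 (SE 0.07), Ube2s at -0.32 (SE 0.15) and Uba6 at 0.32 (SE 0.17). On d14, 7 of the 15 estimates were negative and 8 positive.

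Genes that govern proteasome transcription had a median of 0.04 on d14, with 9 of 13 above 0, and of -0.002 on d14+3. Ddi2, the protease that activates Nfe2l1, had 0.24 (SE 0.09, edgeR adjusted p = 0.141) on d14. Mafg, a small Maf partner, had 0.14 (SE 0.05), and Keap1, which restrains Nfe2l2, -0.14 (SE 0.07). Ddi2 is also in the list of shuttle receptors. On d14+3 Nfe2l2 was at 0.20 (SE 0.07, edgeR adjusted p = 0.526), Mafk at -0.18 (SE 0.07) and Maff at -0.28 (SE 0.17).

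The antigen presentation and interferon genes, which include the neighbours of Psmb8 and Psmb9, had a median of -0.12 on d14 and of 0.02 on d14+3. On d14, 2 of 20 were lower and 2 higher at an unadjusted p under 0.05 (all genes: 13.6% and 13.1%). Irf9, a subunit of the interferon-stimulated factor, was higher without overlap on d14 (all genes: 1.54%) at 0.28 (SE 0.08, edgeR adjusted p = 0.135). It was at 0.19 (SE 0.07, edgeR adjusted p = 0.575) on d14+3. Ifi27 had -0.30 (SE 0.11) and Tapbp -0.18 (SE 0.07) on d14, and Ifit3 0.23 (SE 0.12) and H2-K1 -0.27 (SE 0.16) on d14+3.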

How the data were processed

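The authors deposited a table of unnormalised read counts, from stranded poly-A libraries aligned to mm10 with STAR and counted with featureCounts 1.6.4 on GENCODE vM22 (per the methods and the submitters' processing notes). How strand was set in counting is not given in the sources used here. Symbols came from GENCODE vM21.

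Counts of 23 libraries were fitted in R 4.3.3 with edgeR 4.0.16 (TMM scaling, genes kept by filterByExpr at min.count 10 and min.total.count 15, quasi-likelihood F-test with robust dispersions, the 4 groups together). P-values were adjusted by Benjamini-Hochberg over the 18992 genes tested (threshold 0.05). The left-out mouse was identified by matching group means of the study's table. Log2 CPM used a prior count of 2, and ratios added 0.5 counts. Ratios were compared by two-sided exact permutation tests. Counting error limits members with few counts most. The paper states that mice were housed singly after surgery, and nothing in the labels says that they shared litters. Each edgeR p-value sets a group difference against variation between mice that was fitted over the 4 groups together. That variation was unequal: the core score had an SD of 0.26 in Control d14 and 0.08 in ExpOF d14.

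The genes named were the 6 catalytic beta subunits. For each day they also included the 4 core and 4 regulatory members with the smallest p and a mean of at least 50 counts, the 2 highest and 2 lowest fold changes, members not tested, and the 3 smallest p of each list around the proteasome. The members and lists were chosen with earlier results of these data known. Other named genes were chosen after their values were seen. A gene of the lists around the proteasome, and the counts of its list, are not reported here.

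Alternatives were DESeq2 1.42.0, its size factors, other filters, only the groups compared, all 24 libraries, single cohorts, covariates (RNA integrity, cohort and extraction round, the left-out library's profile), a replicate block, length and GC offsets (splines with 5 degrees of freedom) and each library left out. On simulated data for ExpOF d14 against Control d14, with 200 genes changed by 1 on the log2 scale, edgeR recovered 198 with 5 other calls among 18791 genes. It made 0 calls among 18778 genes when none was changed. Each gene was drawn independently, with the same dispersion in every group. Shifts shared by many genes of a library, and a wider spread in Control d14, were therefore not simulated. Recovery at the size of the member estimates on d14 (log2 fold change -0.53 to 0.08) was not tested.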

Additional observations from a re-analysis of the deposited data

Results flagged for a closer look

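Proteasome genes took up 0.809% of the counts of Control d14 replicate 4, a library outside the comparisons, against at most 0.483% in any other library. The cause was not tested.

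Of 104 sets of library values checked, 5 held a library apart from the rest of its group, all in ExpOF d14+3. Chance gives about 1 in 20 for independent sets. These sets share the same libraries, so that rate cannot be applied to them. The highest library, replicate 5 each time, stood apart for Psmb1 (159 CPM, next 130), Psmb10 (49.0 CPM, next 33.9), Psmc2 (148 CPM, next 121) and Psmc5 (249 CPM, next 199). The lowest, replicate 6, stood apart for Psma4 (56.7 CPM, next 65.1).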

How the results depend on the processing

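No comparison called a member except without Control d14 replicate 1. Leaving out single libraries gave 0 to 29 members called on d14 and 0 to 1 for Control d14+3 against Control d14 (Psme1). Genes called were then 1 to 4220 on d14, 0 to 157 for ExpOF d14+3 against ExpOF d14 and 24 to 313 for Control d14+3 against Control d14. With small groups and a control group that spreads widely, a call on d14 depends on which control mice are kept, and depth limits the members with the fewest counts (Psma8, Psme2b). Of the 736 alternative values of the comparisons, 682 kept their direction and stayed near the value reported. Unless stated, the causes were not tested.

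Genes called on d14 were 166 with DESeq2, 2 with only the groups compared, 0 in each cohort alone and 6 with length and GC offsets. On d14+3 they were 55 with DESeq2 and 26 with the RNA integrity covariate. For ExpOF d14+3 against ExpOF d14 they were 202 with DESeq2, 28 with at least 10 counts in every library, 123 with only the groups compared, 78 with cohort and extraction round, 2 with length and GC offsets and 151 with the profile covariate. For Control d14+3 against Control d14 they were 531 with DESeq2, 0 with only the groups compared, 0 in each cohort, 375 with length and GC offsets and 1079 with the profile covariate. With the replicate number as a block that comparison called 33 genes, and the block changed no count of called members. The numbers do not pair the mice: over 33 same-numbered pairs the correlation of deviations was -0.26 to 0.36, with 6 over 0.1, and 1 of 23 libraries correlated best with one of its own number.

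With all 24 libraries the d14 medians were -0.54 (core) and -0.42 (regulatory), and the core minus regulatory difference was -0.12. With the profile covariate they were -0.015 and 0.012. The d14+3 difference was -0.13 in July and -0.00985 in September. Single libraries left out gave -0.33 to -0.19 (core) and -0.27 to -0.13 (regulatory) on d14, and -0.19 to -0.09 and -0.12 to -0.04 on d14+3.

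Ratio differences changed sign without being called. Psmb8 to Psmb5 on d14 was -0.00398 with all 24 libraries and -0.00894 in September (single libraries left out, -0.030 to 0.14), and on d14+3 -0.16 in July (-0.10 to 0.17). Psmb9 to Psmb6 on d14 was -0.17 in September, and on d14+3 -0.039 to 0.22 with single libraries left out. Psmb10 to Psmb7 on d14+3 was 0.0047 in September.

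Single members also changed sign, none of them called: with the profile covariate 20 of 48 on d14 and 26 on d14+3, with length and GC offsets 6 and 4, in July 5 and 2 and in September 5 and 8. Of the members named by rule, with the profile covariate these were Psma5 (8.5e-05), Psmb6 (0.046), Psmb9 (0.17), Psmc2 (0.036), Psmd3 (0.012), Psmd8 (0.012) and Psme4 (-0.086) on d14. On d14+3 they were Psma6 (0.056), Psmb10 (0.055), Psmb4 (0.054), Psmb7 (0.029), Psmb9 (0.049), Psmc1 (0.034), Psmc2 (0.023), Psmc4 (0.13), Psmc5 (0.063), Psmd3 (0.030) and Psmd8 (0.043). With length and GC offsets those named were Psmd1 (-0.055), Psmd11 (-0.17) and Psme4 (-0.073) on d14 and Psmc4 (0.043) on d14+3. Of those named, single cohorts gave Psma8 (0.027, July), Psmb9 (0.087, July) and Psmd11 (-0.011, September) on d14, and Psma6 (0.023) and Psmc4 (0.095) in September on d14+3. Single libraries left out gave Psma8 -0.25 to 0.10 and Psmb9 -0.22 to 0.097 on d14, and Psmc4 -0.086 to 0.058 and Psmd11 -0.030 to 0.00886 on d14+3.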
